A study of Rattus norvegicus with 2 samples.

Results

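The genes of ErbB signaling, the ligands *Tgfa*, *Hbegf*, *Nrg1*, *Nrg2* and *Nrg3* and the receptors *Egfr*, *Erbb2*, *Erbb3* and *Erbb4*, were examined across the cell types of the hypothalamus in rats that had or had not received estradiol benzoate (EB) as newborns. The members were chosen by gene name, and 8 of the 9 listed genes were measured among the 32883 genes of the count tables. *Nrg3* was not analysed here. Hypothalamic tissue with the AVPV and the ARC came from female Sprague Dawley rats at PND 29 (4 weeks of age). In the SC300 group, 300 µg EB had been given at PND 0.5 in an implanted silicone capsule. Control rats are called intact in the sample labels, whereas the methods give them a capsule with sesame oil. Tissue of 3 rats was pooled per group before dissociation with collagenase, and 1 droplet-based 3′ library was sequenced from each pool. Rats can therefore not be told apart, and with 1 library per group no test between Control and SC300 was possible. All intervals given are exact 95% intervals that cover counting error only, and for a count of 0 the share that 3 counts would give is stated as the limit.

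ErbB receptors are tyrosine kinases of the cell surface that signal in pairs. *Egfr* binds transforming growth factor alpha (*Tgfa*) and heparin-binding EGF-like growth factor (*Hbegf*), *Erbb3* and *Erbb4* bind neuregulins (*Nrg1*, *Nrg2*, *Nrg3*), *Erbb4* also binds the *Hbegf* product, *Erbb2* has no ligand of its own and serves as partner, and *Erbb3* has little kinase activity. In the hypothalamus, glial cells that release these ligands and astrocytes and tanycytes that respond with prostaglandin E2 are known as part of the facilitation of GnRH secretion at female puberty, and neuregulins are known for their action on oligodendrocytes.

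The stretches upstream of *Erbb4* and *Tgfa* are shown because these genes had the most differences past 1.5-fold between SC300 and Control in the comparison below, in 4 and 5 cell types. They were taken from RefSeq promoter windows (build GRCr8), which held 6 of the 8 members, and only bases outside the annotated gene are printed, 5′ to 3′ on the strand of the gene. The *Erbb4* stretch is chr9:78045634-78045856 on the minus strand (223 bases, 77.1% G or C), and the *Tgfa* stretch is chr4:120175469-120175548 on the plus strand (80 bases, 71.2% G or C). Capitals mark a GC box, GGGCGG on either strand, of which *Erbb4* has 1 and the *Tgfa* stretch has none.
Erbb4: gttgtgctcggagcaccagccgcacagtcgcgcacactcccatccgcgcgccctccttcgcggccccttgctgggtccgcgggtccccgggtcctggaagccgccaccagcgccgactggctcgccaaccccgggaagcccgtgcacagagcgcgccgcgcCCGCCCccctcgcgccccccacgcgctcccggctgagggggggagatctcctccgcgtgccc
Tgfa: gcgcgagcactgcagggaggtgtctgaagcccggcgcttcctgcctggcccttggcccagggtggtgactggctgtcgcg
In the whole windows of 300 bases, which start 250 bases before the transcript, the GC box was present in 5 of the 6 members (all but *Hbegf*) and in 33.1% of 33469 rat promoters. The palindromic estrogen response element, GGTCA and TGACC parted by any 3 bases, was in none of the 6 windows and in 0.0269% of all promoters, its arm GGTCA on either strand was in none of the 6 and in 40.5% of all, and the cyclic AMP response element TGACGTCA was in none of the 6 and in 1.83% of all. The GGTCA search also finds every palindrome. Matches describe letters and not binding.

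The files held 4488 barcodes in Control and 4524 in SC300. Barcodes with fewer than 200 detected genes were left out, which kept 4296 Control and 4379 SC300 cells with 51382276 and 56390355 unique molecular identifiers (UMIs), the tags that mark each captured RNA molecule. Median depth of the kept cells was 7986 UMIs per cell in Control and 8182 in SC300. Of all barcodes in the files 9 occurred in both libraries, and of the kept ones 7. Each cell was given to the type whose markers were most enriched in it, and 693 (16.1%) and 668 (15.3%) cells fitted no type. Neurons (375 Control and 352 SC300 cells) had a median of 27972 and 28390 UMIs, astrocytes (1190 and 1315 cells) of 6400 and 6562, and mature oligodendrocytes (358 and 450 cells) of 19971.5 and 20831.5. The gates also held 379 and 377 oligodendrocyte precursors (OPC), 93 and 91 newly formed oligodendrocytes, 449 and 438 microglia, 377 and 336 endothelial cells, 238 and 158 ependymal cells, 51 and 39 tanycyte-like cells, 60 and 71 mural cells, 17 and 39 stromal cells, and 16 and 45 macrophages. Levels are given as UMIs per 1000000 UMIs of the same cell type and library (CPM), and they are compared between cell types and groups and not between genes. The markers that define the types were present in them, but the ependymal gate also held the tanycyte gene *Crym* (855 CPM in Control and 1220 CPM in SC300), and the mural gate held the endothelial gene *Cldn5* (3340 and 2930 CPM).

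**Figure D1:**
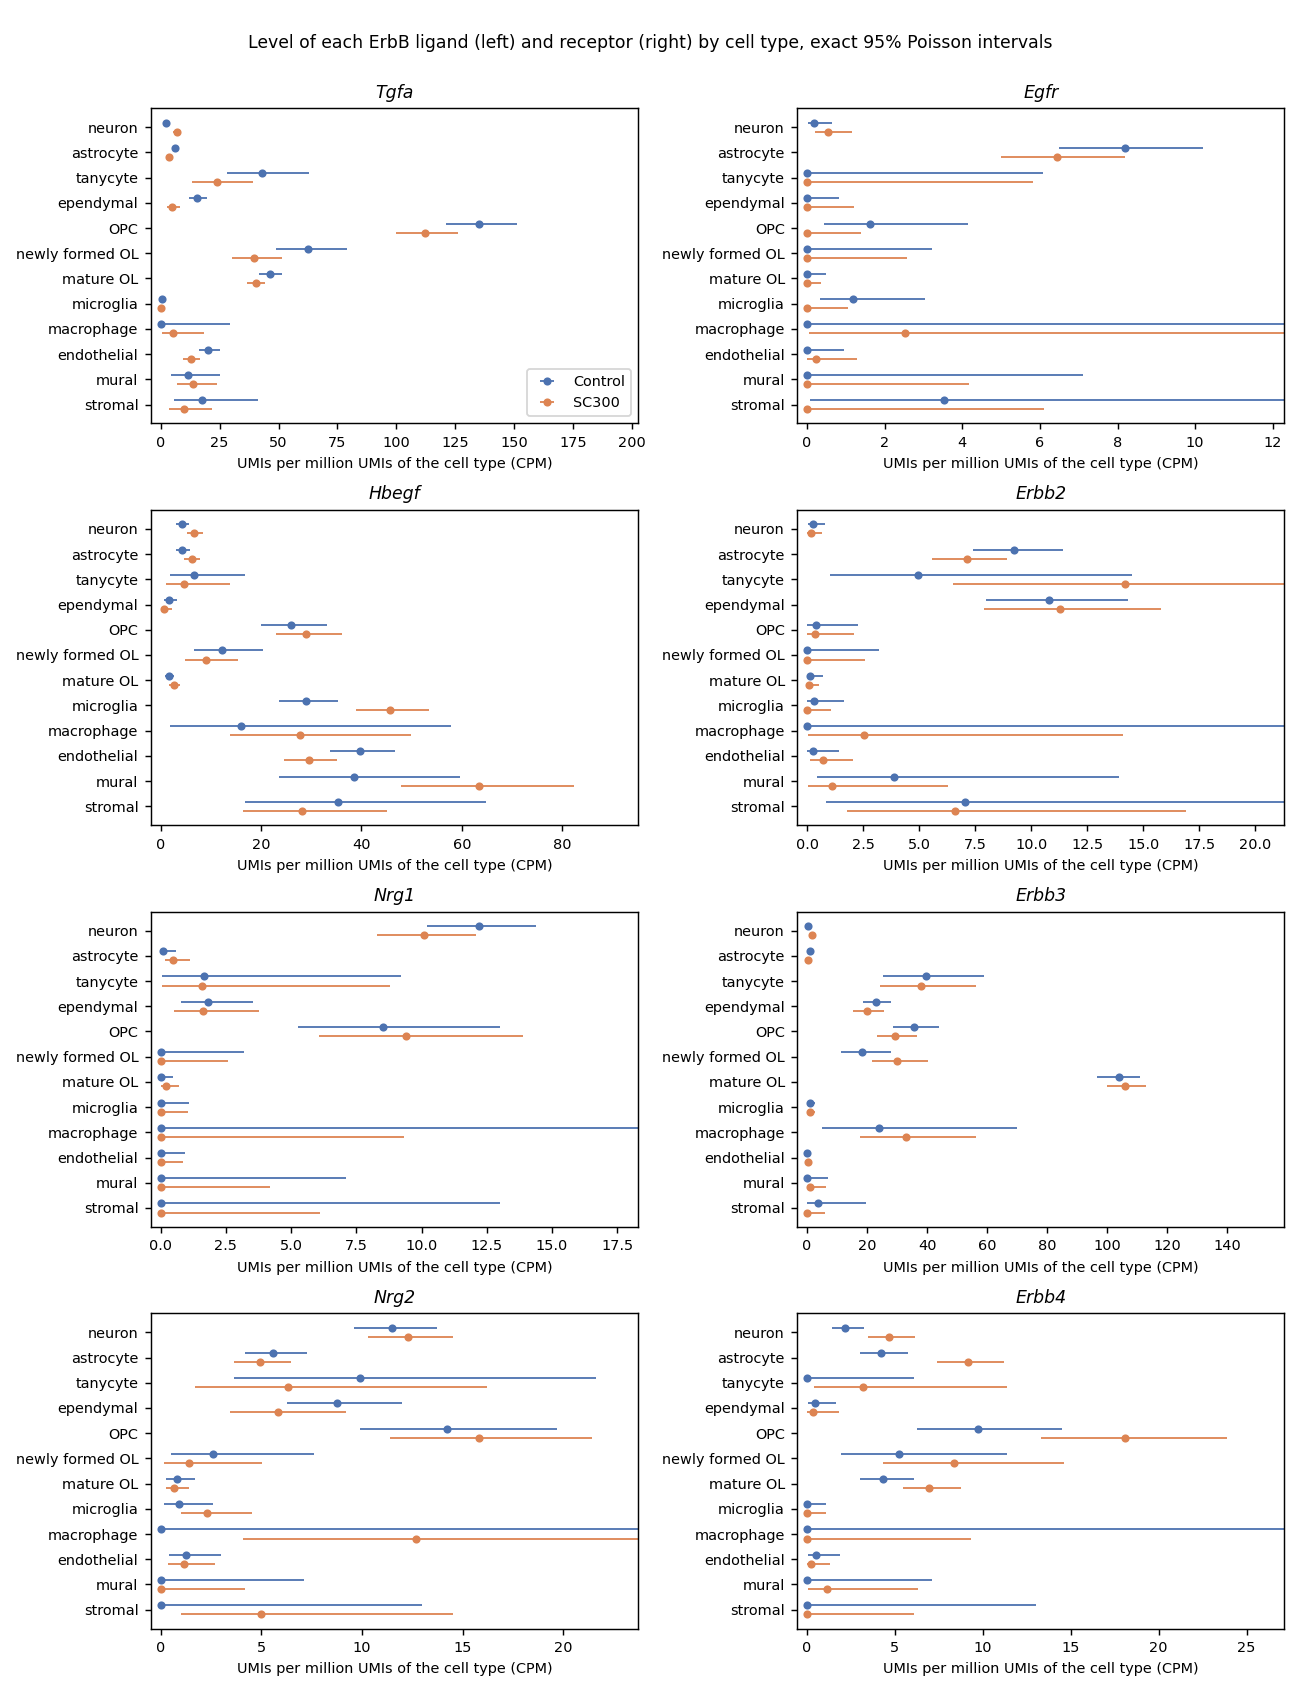
Level of each gene in CPM (x axis, some intervals run past it) in 12 cell types (y axis) in Control (blue) and SC300 (orange), with ligands in the left column and receptors in the right. Points are the levels and lines are exact 95% Poisson intervals; Tgfa was highest in OPC, Nrg1 in neurons, Egfr in astrocytes and Erbb3 in mature oligodendrocytes in both libraries.

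*Tgfa*, a ligand linked to puberty in hypothalamic glia, was read mainly from the oligodendrocyte lineage. Its level in OPC was 135 CPM in Control (121 to 151) and 112 CPM in SC300 (100 to 126), from 334 and 299 UMIs. It was above every other type in both libraries. Newly formed oligodendrocytes had 62.7 and 39.7 CPM and mature oligodendrocytes had 46.3 and 40.4 CPM. Together the 3 stages of the lineage held most *Tgfa* UMIs of each library, with 28.4% and 27.0% in OPC, 6.13% and 5.14% in newly formed and 30.0% and 37.7% in mature oligodendrocytes. Tanycyte-like cells followed with 42.9 and 23.7 CPM, their intervals overlapping those of mature oligodendrocytes in Control and of newly formed oligodendrocytes in SC300. Endothelial cells had 20.3 and 12.8 CPM. Astrocytes, the most numerous type, had only 6.10 CPM (4.63 to 7.88) in Control and 3.37 CPM (2.35 to 4.69) in SC300. In microglia only 2 UMIs and 1 UMI were counted, at a depth per cell above that of OPC.

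The share of OPC with a *Tgfa* UMI was 55.4% (50.2 to 60.5) in Control and 53.1% (47.9 to 58.2) in SC300. Mature oligodendrocytes reached 55.3% in each library, but at a greater depth than OPC, which had 6458 and 6825 UMIs per cell. After each cell was thinned to 4000 UMIs, which left out 828 Control and 578 SC300 cells of all types, the shares were 37.9% and 36.1% in OPC, 23.3% and 22.1% in newly formed and 14.2% and 14.1% in mature oligodendrocytes. The order of the 3 stages was therefore the same in both libraries, and the shares differed between the libraries by less than their intervals in all 3. Tanycyte-like cells had a thinned share of 11.4% in each library, and microglia had 0% (0 of 372 cells) and 0.258%.

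*Hbegf*, whose membrane-bound precursor is shed by metalloproteases, had its higher levels in vessels, microglia and OPC. In endothelial cells the level was 39.8 CPM in Control (33.8 to 46.6) and 29.5 CPM in SC300 (24.6 to 35.1). Microglia had 29 CPM (23.6 to 35.4) and 45.7 CPM (38.9 to 53.4), and OPC had 25.9 and 29 CPM. The interval of every type from endothelial cells to OPC overlapped with its neighbour in Control. Mural cells had 38.6 and 63.4 CPM, and 64.3% of their 56 UMIs in SC300 lay in 3 cells, 1 of which held 14 *Hbegf* UMIs and 127 UMIs of the endothelial gene *Cldn5*. In macrophages of SC300, 10 of 11 UMIs came from a single cell. Mature oligodendrocytes were low with 1.58 and 2.61 CPM. Their share of cells with a UMI was 3.07% and 4.22%, beside 21.5% and 25.0% in endothelial cells, which had fewer UMIs per cell (7019 and 8418).

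Of the neuregulin genes, *Nrg1* was read mainly from neurons and *Nrg2* from several types. *Nrg1*, which signals between axons and glia, had 12.2 CPM (10.2 to 14.4) in Control neurons and 10.1 CPM (8.28 to 12.1) in SC300 neurons, which was 69.8% and 66.7% of all its UMIs. OPC had 8.51 and 9.40 CPM, with intervals that overlapped those of neurons. No *Nrg1* UMI was found in microglia (0 of 449 and 0 of 438 cells, which allows shares of up to 0.668% and 0.685%). In both libraries 0 UMIs were also found in newly formed oligodendrocytes, macrophages, endothelial, mural and stromal cells. For the types with few cells, 3 counts would give 24.0 and 7.59 CPM in macrophages, 10.6 and 4.96 CPM in stromal cells and 5.79 and 3.4 CPM in mural cells. The limit of Control macrophages lay above the level of neurons. *Nrg2* was spread more widely, with 41.0% and 43.8% of its UMIs in neurons, 17.1% and 16.3% in astrocytes and 11.3% and 13.4% in OPC. It had 14.2 and 15.8 CPM in OPC, 11.5 and 12.3 CPM in neurons, 8.78 and 5.83 CPM in ependymal cells and 5.57 and 4.91 CPM in astrocytes, beside 0.888 and 2.30 CPM in microglia.

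Among the receptors, *Egfr* was read almost only from astrocytes. Its level there was 8.20 CPM (6.48 to 10.2) in Control and 6.45 CPM (5.00 to 8.19) in SC300, and astrocytes held 86.7% and 82.7% of all its UMIs. A UMI was found in 5.80% and 4.94% of astrocytes, beside 0.445% and 0% of microglia, a count of 0 that allows up to 0.685% in SC300, at similar depth. The Control interval of astrocytes overlapped that of stromal cells, where 1 UMI was counted, and lay above that of OPC. Tanycyte-like, ependymal and mural cells and newly formed and mature oligodendrocytes had 0 *Egfr* UMIs in both libraries. For tanycyte-like cells (0 of 51 and 0 of 39) this allows shares of up to 5.88% and 7.69%, which are above the astrocyte shares. The limits were 5.0% and 4.23% in mural cells and 3.23% and 3.3% in newly formed oligodendrocytes. They were 1.26% and 1.9% in ependymal cells and 0.838% and 0.667% in mature oligodendrocytes. OPC and oligodendrocytes, which held most *Tgfa* UMIs, had 4 *Egfr* UMIs in all, counted in Control OPC (1.62 CPM).

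*Erbb2*, the receptor without a ligand, was shared by astrocytes and ventricular cells. Ependymal cells had 10.8 CPM (7.97 to 14.3) in Control and 11.3 CPM (7.90 to 15.8) in SC300, and astrocytes had 9.25 CPM (7.42 to 11.4) and 7.12 CPM (5.59 to 8.94). In tanycyte-like cells the values were 4.95 and 14.2 CPM from 3 and 9 UMIs, with overlapping intervals. Neurons had 3 and 2 UMIs, and mature oligodendrocytes had 1 UMI in each library.

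*Erbb3*, the neuregulin receptor of myelinating cells, stood out in mature oligodendrocytes. Its level was 104 CPM (96.7 to 111) in Control and 106 CPM (100 to 113) in SC300, above every other type in both libraries, and 82.4% and 84.4% of these cells held a UMI. They contributed 70.3% and 78.0% of all *Erbb3* UMIs. Tanycyte-like cells had 39.6 and 37.9 CPM, OPC 35.6 and 29.3 CPM, ependymal cells 23.0 and 20.1 CPM and newly formed oligodendrocytes 18.3 and 30.0 CPM. The oligodendrocyte gene *Mag* was at 8.56 and 18.5 CPM in ependymal cells and at 8.25 and 15.8 CPM in tanycyte-like cells, against 5370 and 5740 CPM in mature oligodendrocytes. In the ependymal gate 102 and 62 *Erbb3* UMIs were thus counted beside 38 and 57 *Mag* UMIs, whereas mature oligodendrocytes had 790 and 1100 beside 40860 and 59454. Macrophages had 24.0 and 32.9 CPM of *Erbb3* from 3 and 13 UMIs. Endothelial cells, microglia and astrocytes were all below 1 CPM.

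*Erbb4*, the neuregulin receptor with its own kinase activity, had its highest level in OPC, with 9.72 CPM (6.23 to 14.5) in Control and 18.1 CPM (13.3 to 23.9) in SC300. Newly formed oligodendrocytes (5.22 and 8.37 CPM), mature oligodendrocytes (4.34 and 6.95 CPM), astrocytes (4.21 and 9.15 CPM) and neurons (2.18 and 4.67 CPM) followed, with intervals of neighbours that overlapped in Control. In SC300 the interval of OPC lay above that of astrocytes but overlapped that of newly formed oligodendrocytes (4.32 to 14.6). Microglia had no *Erbb4* UMI in either library (0 of 449 and 0 of 438 cells, up to 0.668% and 0.685%), and endothelial cells had 0.513 CPM in Control.

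**Figure D2:**
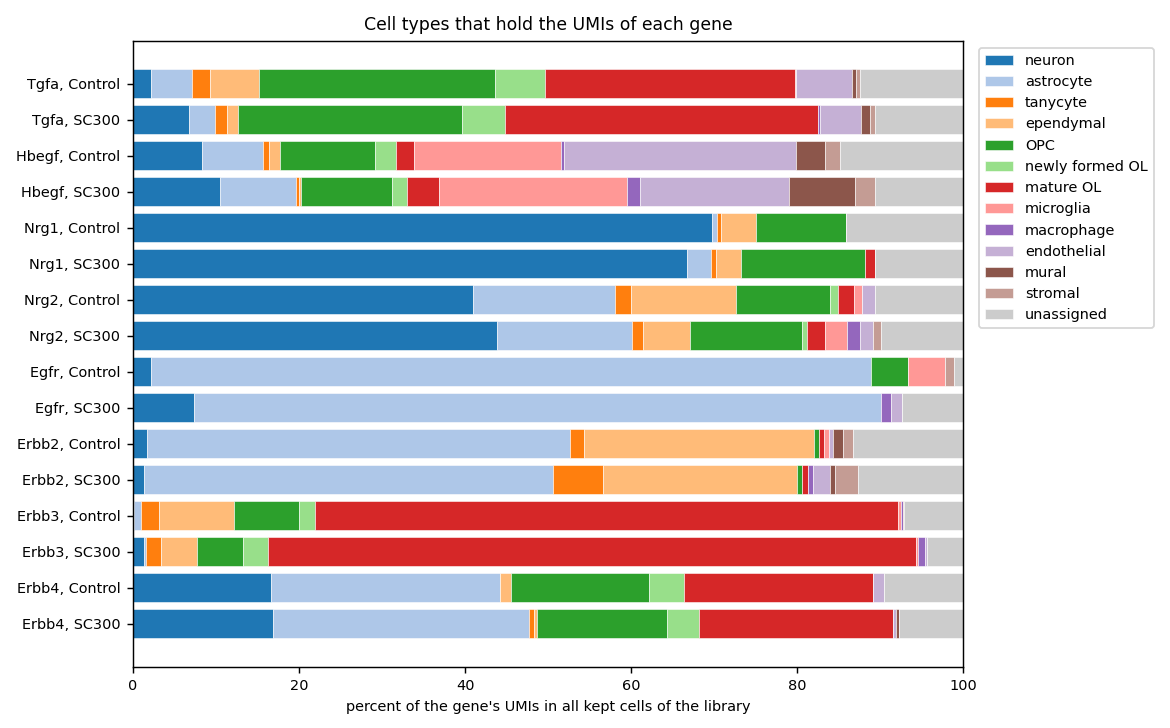
Percent of the UMIs of each gene in all kept cells of a library (x axis) that lay in each cell type (colors), with 1 bar per gene and library (y axis). Astrocytes held 86.7% and 82.7% of Egfr, mature oligodendrocytes 70.3% and 78.0% of Erbb3 and neurons 69.8% and 66.7% of Nrg1, in Control and SC300.

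The type with the highest level was the same in Control and SC300 for 6 of the 8 genes. Among these, only *Tgfa* and *Erbb3* had a leading type whose interval lay above all others in both libraries. The leading type differed for *Hbegf* (endothelial cells in Control and mural cells in SC300) and *Erbb2* (ependymal cells and tanycyte-like cells). The *Erbb2* intervals of these types overlapped in both libraries, and the *Hbegf* intervals overlapped in Control. In SC300 the *Hbegf* interval of mural cells (47.9 to 82.4 CPM) lay above that of endothelial cells (24.6 to 35.1 CPM). It overlapped that of microglia (38.9 to 53.4 CPM). In 6 of 8 genes the highest share of cells with a UMI was above that of a type chosen as background, with intervals that did not overlap in either library. The type with the highest share was picked per library from these same shares, so the number is a description. For *Hbegf* in Control it was stromal cells, with 5 of 17 cells. These shares are at the full depth of each type, and the number was 3 of 8 after thinning to 2000 UMIs and 3 of 8 with at most 10% mitochondrial UMIs. At full depth the exceptions were *Tgfa*, since its background type, the mature oligodendrocytes, held the gene in 55.3% of cells, and *Egfr*, whose highest share in Control was 5.88% from 1 of 17 stromal cells.

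**Figure D3:**
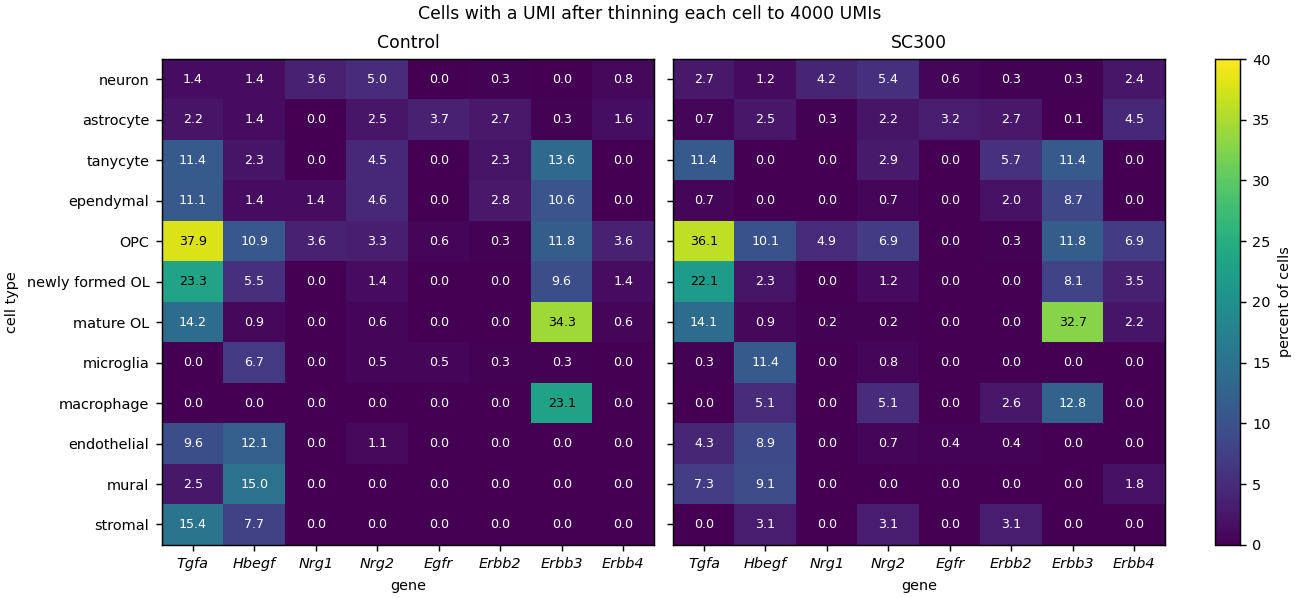
Percent of cells with at least 1 UMI of each gene (columns) in each cell type (rows) after thinning every cell to 4000 UMIs, in Control (left) and SC300 (right). Tgfa in OPC (37.9% and 36.1%) and Erbb3 in mature oligodendrocytes (34.3% and 32.7%) were the highest shares in both libraries.

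SC300 was then compared with Control within each cell type, for the 29 of 96 gene and cell type pairs with at least 50 UMIs in both libraries together. A difference of over 1.5-fold was used as limit. SC300 was higher past that limit in 9 pairs and lower in 5, and 15 pairs lay within it. These 14 pairs became 2 with only cells of at most 10% mitochondrial UMIs and 4 at 2-fold. Over all genes with at least 50 UMIs, 3.79% of gene and cell type pairs were past 1.5-fold higher and 4.36% past it lower. Pairs with few UMIs pass the limit more often, and of the 22 member pairs with under 200 UMIs 8 were higher and 5 lower, beside 6.77% and 7.75% of all such pairs. Of the 7 member pairs with at least 200 UMIs only *Hbegf* in microglia was past the limit. By cell type, the members past the limit were 3 of 5 pairs higher in neurons (3.12% of all genes higher and 3.35% lower), 1 higher and 1 lower of 6 in astrocytes (3.18% and 2.22%), 2 lower of 4 in ependymal cells (3.78% and 6.15%) and 1 higher of 5 in OPC (2.14% and 2.36%). In newly formed oligodendrocytes 1 of 2 was higher and 1 lower (3.19% and 3.99%), and in mature oligodendrocytes 1 of 3 was higher (2.89% and 2.36%). The single pairs of microglia (3.09% and 3.65%) and mural cells (3.31% and 10.4%) were higher, and 1 of 2 in endothelial cells was lower (3.69% and 3.63%). No member reached 50 UMIs in tanycyte-like cells (6.6% and 9.09%), macrophages (19.1% and 7.2%) or stromal cells (9.54% and 11.2%). The median log2 ratio was -0.19 for the 18 ligand pairs and 0.07 for the 11 receptor pairs, and -0.03 over all genes.

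**Figure D4:**
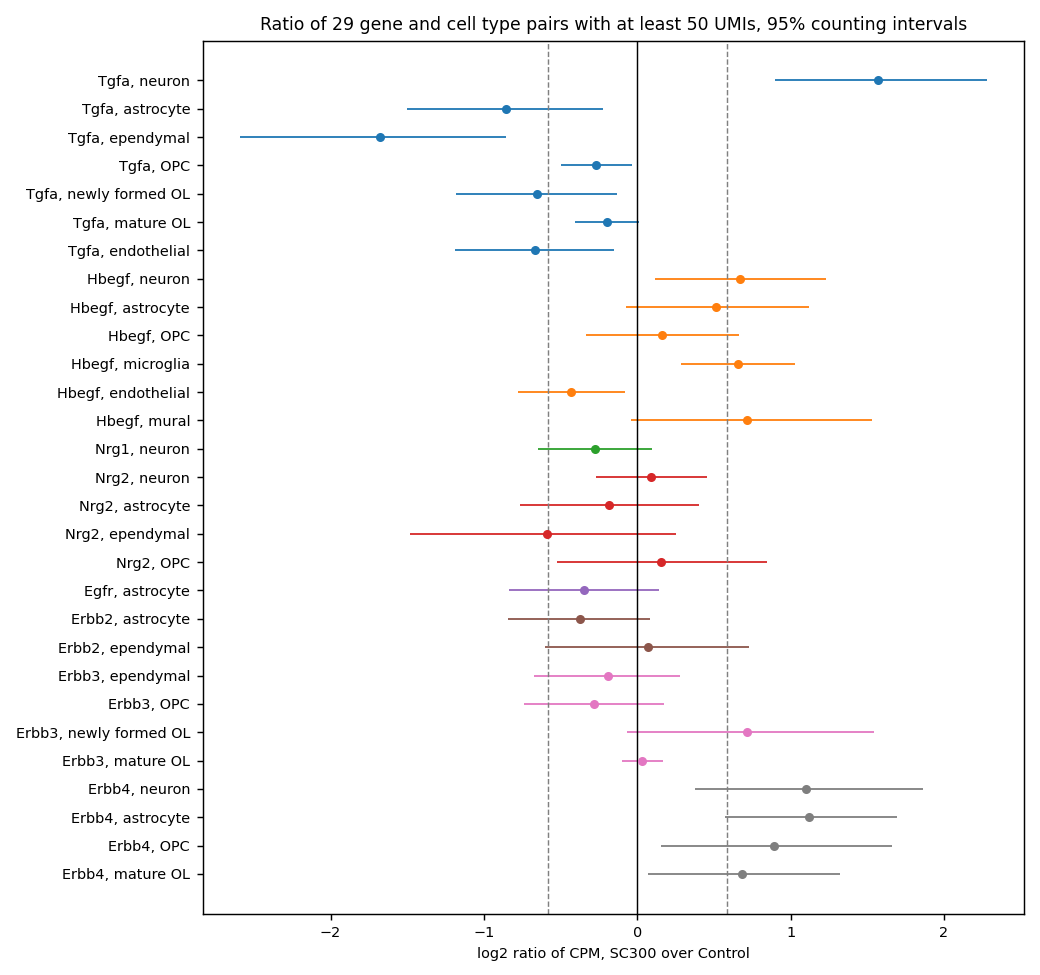
The log2 ratio of CPM, SC300 over Control (x axis), of the 29 gene and cell type pairs with at least 50 UMIs (y axis, colored by gene). Lines are 95% intervals of counting error and dashed lines mark 1.5-fold; all 4 Erbb4 pairs lie to the right of the upper dashed line, and 6 of 7 Tgfa pairs lie below 0.

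*Erbb4* was higher in SC300 in every type with enough UMIs. In neurons 24 UMIs in Control and 52 in SC300 gave 2.18 and 4.67 CPM, a log2 ratio of 1.10 (0.37 to 1.86). Astrocytes had 40 and 95 UMIs, or 4.21 and 9.15 CPM, with a ratio of 1.12 (0.57 to 1.69). In OPC the 24 and 48 UMIs gave 9.72 and 18.1 CPM, a ratio of 0.89 (0.16 to 1.66), and in mature oligodendrocytes 33 and 72 UMIs gave 4.34 and 6.95 CPM, a ratio of 0.68 (0.07 to 1.32). SC300 was therefore 2.14-fold, 2.17-fold, 1.86-fold and 1.60-fold above Control, and all 4 intervals excluded equality within counting error. The counts were spread over many cells, and the 3 cells with the most UMIs held 17.3% in neurons, 6.32% in astrocytes, 6.25% in OPC and 9.72% in mature oligodendrocytes of SC300.

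The number of cells with an *Erbb4* UMI showed the same direction, but is not a separate measure, since most held a single UMI. It was 38 (3.19%) and 91 (6.92%) in astrocytes, 23 (6.07%) and 48 (12.7%) in OPC, 32 (8.94%) and 67 (14.9%) in mature oligodendrocytes and 19 (5.07%) and 37 (10.5%) in neurons. After thinning to 4000 UMIs, astrocytes had 1.56% (0.874 to 2.56) in Control and 4.55% (3.42 to 5.93) in SC300, which did not overlap. The thinned shares of neurons (0.836% and 2.39%), OPC (3.64% and 6.94%) and mature oligodendrocytes (0.581% and 2.24%) were higher in SC300 with overlapping intervals. After thinning to 2000 UMIs, astrocytes had 0.823% (0.377 to 1.56) and 2.05% (1.34 to 2.99), which overlapped. The shares were then 0.271% and 0.86% in neurons, 1.68% and 5.41% in OPC and 1.14% and 1.34% in mature oligodendrocytes. These intervals overlapped as well. Over all kept cells *Erbb4* was at 2.82 and 5.46 CPM.

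A ratio past 1.5-fold upward in all 4 of these types was found for 7 of 7011 genes (0.0998%) with at least 50 UMIs in each, and downward for 8 (0.114%). The 4 types were those in which *Erbb4* had enough UMIs, so they were chosen after its values were seen. *Erbb4* held 72 to 135 UMIs per type in both libraries together, whereas the 7011 genes had no upper limit. Pairs with few UMIs pass 1.5-fold more often, and a share among genes of similar count was not taken. The other genes of the 7 higher in all 4 types were *Acaa2*, *Rbm41*, LOC100910237, LOC100911991 and the neuropeptide genes *Oxt* and *Pmch*. *Pmch*, a gene of hypothalamic neurons, had a log2 ratio of 10.53 in neurons and of 1.29 to 1.48 in the 3 glial types, and the part of free neuronal RNA or of the dissected area in the *Erbb4* ratios was not tested.

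**Figure D5:**
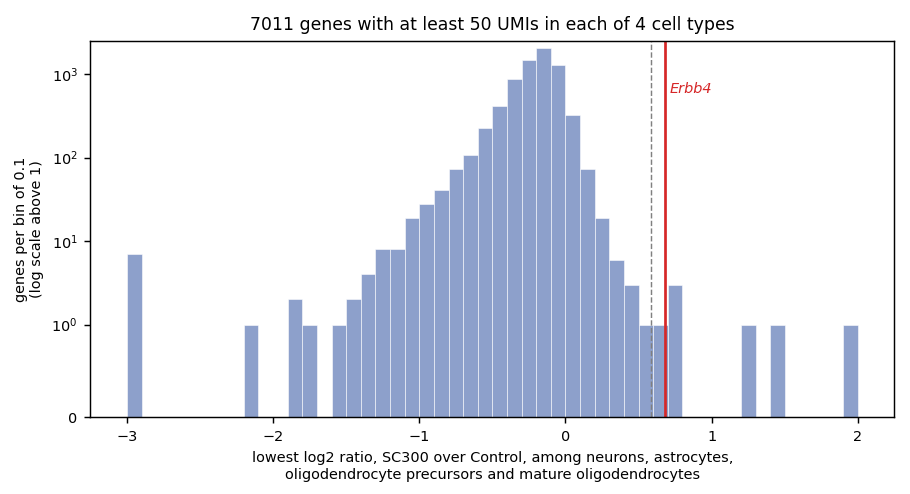
Number of genes (y axis, log scale above 1) by their lowest log2 ratio, SC300 over Control, among neurons, astrocytes, OPC and mature oligodendrocytes (x axis, bins of 0.1, with values beyond either end put in the outer bars), for 7011 genes. Erbb4 (red line) is at 0.68, the median gene is at -0.19, 6 genes are above Erbb4, and the dashed line marks 1.5-fold.

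*Tgfa* was lower in SC300 in 6 of its 7 pairs. In ependymal cells 69 UMIs in Control and 15 in SC300 gave 15.5 CPM (12.1 to 19.7) and 4.86 CPM (2.72 to 8.02), a log2 ratio of -1.68 (-2.59 to -0.86). The share of ependymal cells with a UMI was 20.6% and 8.23%, and after thinning to 4000 UMIs 11.1% (7.25 to 16.1) and 0.667% (0.0169 to 3.66), without overlap. After thinning to 2000 UMIs it was 3.49% (1.52 to 6.77) and 0% (0 of 156 cells), with intervals that overlapped. *Crym* in the same gate was higher in SC300, and tanycyte-like cells had 26 and 15 *Tgfa* UMIs. The part of tanycyte RNA in the ependymal difference was not tested. Lower levels past 1.5-fold were also found in astrocytes (58 and 35 UMIs, ratio -0.86, -1.5 to -0.23), newly formed oligodendrocytes (72 and 57 UMIs, ratio -0.66, -1.18 to -0.14) and endothelial cells (79 and 55 UMIs, ratio -0.67, -1.19 to -0.15). After thinning to 4000 UMIs the shares were 2.18% and 0.701% in astrocytes and 9.57% and 4.26% in endothelial cells, with overlapping intervals in both types. In newly formed oligodendrocytes the shares were 23.3% and 22.1%, and 12.8% and 16.9% after thinning to 2000 UMIs. In OPC and mature oligodendrocytes the ratios were -0.27 (-0.50 to -0.04) and -0.20 (-0.41 to 0.01), within the limit.

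Neurons were the exception, with 2.27 CPM of *Tgfa* in Control and 6.73 CPM in SC300, a ratio of 1.57 (0.90 to 2.28). In SC300, 41.3% of the 75 UMIs lay in 3 cells, and 1 cell held 12, whereas no Control neuron held more than 2. A *Tgfa* UMI was found in 22 Control neurons (5.87%) and 33 SC300 neurons (9.38%), with overlapping intervals. Without the 3 neurons with the most UMIs in each library the ratio was 1.22, and with only cells of at most 10% mitochondrial UMIs it was reversed (-0.42). The cell with 12 *Tgfa* UMIs held 27 UMIs of *Snap25* and 1 of *Mag*.

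*Hbegf* was higher in SC300 in 5 of 6 pairs. Microglia had 98 UMIs in Control and 159 in SC300, or 29 and 45.7 CPM, a ratio of 0.66 (0.28 to 1.03). The share of microglia with a UMI was 10.9% (8.18 to 14.2) and 15.3% (12.1 to 19.0), and the highest single cell held 7 and 15 UMIs. After thinning, the microglial shares were 6.72% and 11.4% at 4000 UMIs and 5.44% and 5.74% at 2000 UMIs. Their intervals overlapped at each depth. Neurons had 4.18 and 6.64 CPM (ratio 0.67, 0.12 to 1.23). The share of neurons with a UMI was 11.2% and 14.5% at full depth, but 1.39% and 1.19% after thinning to 4000 UMIs, with overlapping intervals. Mural cells had 38.6 and 63.4 CPM (ratio 0.72, -0.04 to 1.53), and the mural difference was gone without the 3 cells with the most UMIs in each library (-0.03). Astrocytes (0.52) and OPC (0.16) were within the limit, and endothelial cells were lower by less than the limit (-0.43, -0.78 to -0.08).

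The remaining genes had fewer pairs past the limit, 1 each for *Nrg2* and *Erbb3*. *Nrg1* in neurons had a ratio of -0.28 (-0.65 to 0.10). The 4 *Nrg2* ratios ran from -0.59 to 0.16, with the lowest in ependymal cells (39 and 18 UMIs, -1.48 to 0.25), just past the limit. *Egfr* in astrocytes had a ratio of -0.35 (-0.84 to 0.14) and *Erbb2* of -0.38 in astrocytes and 0.07 in ependymal cells. *Erbb3* in mature oligodendrocytes, the best counted pair with 790 and 1100 UMIs, had a ratio of 0.03 (-0.10 to 0.17). In newly formed oligodendrocytes *Erbb3* had 21 and 43 UMIs and a ratio of 0.71 (-0.07 to 1.54). Its thinned shares were 9.59% and 8.14% at 4000 UMIs but 2.33% and 5.62% at 2000 UMIs, with overlapping intervals at each depth. In neurons *Erbb3* rested on 2 UMIs in Control and 19 in SC300, 10 of them in 1 cell that also held 452 *Mag* UMIs.

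Neurons were divided by transmitter genes into GABAergic (*Slc32a1*, *Gad1* or *Gad2*, 233 Control and 203 SC300 cells) and glutamatergic cells (*Slc17a6*, 93 and 85 cells), and 43 and 54 cells had both kinds. *Erbb4*, known from GABAergic interneurons of the cortex, was at 2.43 CPM in Control and 4.78 CPM in SC300 in GABAergic neurons (16 and 28 UMIs, ratio 0.97, 0.04 to 1.96). In glutamatergic neurons *Erbb4* was at 0.354 CPM in Control and 3.76 CPM in SC300, from 1 and 11 UMIs. Intervals of both kinds of neurons overlapped in each library, with 3.17 to 6.9 CPM in GABAergic and 1.88 to 6.73 CPM in glutamatergic neurons of SC300. *Tgfa* was at 2.13 and 8.19 CPM in GABAergic neurons, where 3 cells held 58.3% of the SC300 UMIs, and at 2.83 and 3.42 CPM in glutamatergic neurons. *Nrg1* (10.9 and 8.02 CPM against 13.1 and 12.3 CPM) and *Nrg2* (10.8 and 12.5 CPM against 13.1 and 12.7 CPM) were found in both kinds of neurons, with overlapping intervals.

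Detection of 2 members in the same cell was counted after thinning to 4000 UMIs. Among mature oligodendrocytes with a *Tgfa* UMI 38.8% in Control and 33.3% in SC300 held an *Erbb3* UMI, beside 33.6% and 32.6% of those without, so that the intervals overlapped. In OPC the values were 12.8% and 10.4% with *Tgfa* and 11.2% and 12.7% without. *Nrg1* and its receptor gene *Erbb4* were found together in 0 of 13 and 0 of 14 *Nrg1*-positive neurons, too few to compare. Without thinning, 3 of 84 (3.57%) and 7 of 72 (9.72%) *Nrg1*-positive neurons held an *Erbb4* UMI, beside 5.50% and 10.7% of the others, with overlapping intervals.

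Other genes of the pathway were taken from lists that were chosen with earlier results of these data known. Of the other ErbB ligands (*Egf*, *Areg*, *Btc*, *Ereg*, *Epgn*, *Nrg4*), only 1 pair reached 50 UMIs, with a ratio of 0.40. Of 32 pairs of ligand release genes, the proteases and their regulators, 4 were higher past the limit and 1 lower (median 0.02), and of 144 pairs of adaptors and kinases 3 were higher and 9 lower (median -0.06). Inhibitors and turnover genes had 2 higher and 9 lower of 62 (median -0.06), and prostaglandin and puberty genes 2 higher and 1 lower of 13 (median 0.27). Immediate targets had 8 higher and 6 lower of 62 (median -0.03). Of these 8, 4 were in macrophages, where 19.1% of all genes were past the limit higher, 2 in mural cells and 2 in astrocytes. Over all gene and cell type pairs 3.79% were higher past the limit and 4.36% lower, and the median was -0.03. *Gnrh1* was not analysed here.

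In astrocytes, which held most *Egfr* UMIs, the transcription factor genes *Etv5* and *Etv4*, targets of the kinase cascade below receptor tyrosine kinases, were at 22.3 and 43.3 CPM (ratio 0.96, 0.72 to 1.20) and at 19.1 and 32.3 CPM (0.76, 0.49 to 1.03). *Egr1* of the same list of targets was past the limit in the other direction, with 49.7 and 30.3 CPM (-0.71, -0.92 to -0.51). *Spry1*, a feedback inhibitor of that cascade, was at 1.89 and 3.95 CPM (1.06, 0.23 to 1.95), from 18 and 41 UMIs. Among the 11 inhibitor and turnover genes with at least 50 UMIs in astrocytes, no other was past the limit (median 0.02). *Rhbdf2*, a cofactor of the sheddase that releases *Tgfa* and *Hbegf* products, was lower with 21.3 and 11.6 CPM (-0.89, -1.22 to -0.55), whereas the related *Rhbdf1* was higher with 28.2 and 42.7 CPM (0.60, 0.38 to 0.82). The prostaglandin E2 receptor gene *Ptger2* was lower with 4.42 and 2.41 CPM (-0.88, -1.65 to -0.13). *Egr1* and *Rhbdf1* in astrocytes were named after their values were seen. In astrocytes 3.18% of all genes were past 1.5-fold higher and 2.22% lower.

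In OPC, the type with most *Tgfa* per UMI, *Egr1* was at 1010 and 606 CPM (-0.74, -0.83 to -0.65), the inhibitor *Spry4* at 45.4 and 29 CPM (-0.65) and the glutamate receptor gene *Gria1* at 8.91 and 17.3 CPM (0.96). *Egr1* is an immediate-early gene, and its level in neurons was 109 and 71.9 CPM (-0.60) and in newly formed oligodendrocytes 48.7 and 13.2 CPM (-1.88). In microglia the inhibitors *Errfi1* (39.7 and 22.1 CPM, -0.84) and *Dusp6* (837 and 545 CPM, -0.62) were lower and *Rhbdf2* was higher (11.0 and 17.8 CPM, 0.70). These were 2 of the 7 inhibitor and turnover genes with at least 50 UMIs in microglia (median -0.04), and no other was past the limit. Microglia held 4 and 0 UMIs of *Egfr*, 1 and 0 of *Erbb2*, 3 and 3 of *Erbb3* and none of *Erbb4*. In endothelial cells *Ptgs2*, the prostaglandin synthase gene, was at 20.8 and 38.6 CPM (0.89) and *Spry1* at 57.0 and 27.0 CPM (-1.08). Macrophages had *Egr1* at 304 and 1140 CPM (1.91), but from 16 and 45 cells, and 19.1% of all genes in that type were past 1.5-fold higher.

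The genes with the most similar pattern were sought among 11947 genes by the Pearson correlation of log2(CPM + 1) over 24 points, the 12 cell types in both libraries. The points share libraries and depth, types with few cells weigh as much as the others, and the values are a description. The nearest genes were *Rchy1* for *Tgfa* (r = 0.878), *Lrrfip1* for *Hbegf* (0.902), *Shank1*, a postsynaptic scaffold gene, for *Nrg1* (0.95), *Clstn3* for *Nrg2* (0.887), *Kcng4* for *Egfr* (0.808), *Ccdc8* for *Erbb2* (0.931), *Creb5* for *Erbb3* (0.887) and *Cadm4* for *Erbb4* (0.906). Among the members themselves the highest correlation was that of *Nrg1* and *Nrg2* (0.735), and *Tgfa* correlated with *Erbb4* (0.55) and *Erbb3* (0.505) more than with *Egfr* (-0.189).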

How the data were processed

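Single-cell libraries of 1 Control and 1 SC300 pool (3 female rats each) were used. The UMI counts per gene and barcode were deposited by the authors without normalization, from Cell Ranger (version 3.0.1 in the file headers, 3.0.2 named for demultiplexing) and the Ensembl 96 transcriptome. The number of barcodes equals that of analysed cells in the methods, which also list a smaller number of cells that the limit of 200 genes did not give.

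Barcodes under 200 genes were removed. For each type, the mean over its markers of log2(1 + level in the cell over level in all cells) was taken, and the best type was assigned at a score of at least 1, at least 0.5 above the next type and with 2 markers detected. The names are rebuilt and may differ from those of the study. The marker lists, members and gene lists were chosen with earlier results of these data known, and the score was set after seeing the data. No doublet caller was run. Cells close to 2 types stayed unassigned. UMIs were summed per type and library and scaled to CPM, with exact 95% Poisson, Clopper-Pearson and conditional binomial intervals. A count of 0 was read as up to 3 counts. Shares were also taken after thinning to 4000 or 2000 UMIs. All 9 listed members were to be named, and of the pathway lists at most the 5 pairs furthest past 1.5-fold per type, of which some are printed, and the 3 genes most like each member, of which the first is printed. Only the ratio with its interval and the type assignment were run on simulated data. For the assignment, cells were simulated from the mean profile of each assigned type, so mixed cells were not tried. Intervals were taken from scipy 1.17.1, tables were made with pandas 2.3.3 and numpy 2.4.6 in Python 3.11.15, and figures with matplotlib 3.10.9.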

Additional observations from a re-analysis of the deposited data

Results flagged for a closer look

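Cells that met no cell type gate were outside the comparisons by type and still held UMIs of the 8 genes, 408 in Control and 352 in SC300. They were 693 and 668 cells with a median of 6154 and 7155.5 UMIs. *Tgfa* was at 23.0 CPM in these Control cells and 16.8 CPM in these SC300 cells, and *Erbb4* was at 2.19 and 3.41 CPM (log2 ratio 0.64, -0.37 to 1.71). The cells left out for fewer than 200 detected genes held 1 member UMI in Control and 2 in SC300.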

How the results depend on the processing

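The 14 pairs past 1.5-fold became 2 when cells with over 10% mitochondrial UMIs were left out, which leaves fewer UMIs, 9 with single marker genes, which define fewer types, and 4 with 2-fold as limit. The 6 genes above their background type became 3 with at most 10% mitochondrial UMIs and 3 with cells thinned to 2000 UMIs. Reversed directions were found for *Tgfa* in neurons (-0.42 with at most 10% mitochondrial UMIs), *Hbegf* in mural cells (-0.038 without the 5% of cells with the most UMIs, -0.029 with every cell weighted alike, -0.026 without the 3 cells with the most *Hbegf* UMIs) and *Erbb3* in newly formed oligodendrocytes (-0.0903 with every cell weighted alike), and the cause was not tested. With no minimum of UMIs, *Erbb4* stayed past 1.5-fold in 12 of 12 alternatives in neurons (0.98 to 2.36), astrocytes (1.05 to 1.38) and OPC (0.71 to 1.06), and in 11 of 12 in mature oligodendrocytes (0.52 to 0.81). *Tgfa* stayed past it in 12 of 12 in ependymal cells (-2.49 to -1.05) and astrocytes (-1.52 to -0.71). *Hbegf* in microglia stayed past it in 10 of 12 (0.52 to 0.71). Of all ratios under the alternatives, 327 stayed within the counting interval of the reported value, 10 left it and 5 reversed. Reversals, here and above, were counted only for the 14 pairs past 1.5-fold. Several pairs within that limit also changed sign under some alternatives. Examples are *Tgfa* in mature oligodendrocytes (-0.256 to 0.146), *Erbb2* in astrocytes (-0.48 to 0.195) and *Nrg2* in neurons (-0.402 to 0.208). A gate margin of 1 was added after seeing the data and gave 11 pairs. No paired analysis was possible because the groups share only replicate number 1 and no test was made. Only 29 of 96 pairs held 50 UMIs, low counts do not separate low depth from low expression, and 1 pool per group leaves the variation between rats unknown.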
